A study of Mus musculus with 8 samples.

Results

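STING is the adaptor that links cyclic dinucleotide sensing to interferon and NF-κB signalling. The genes described here encode the proteins of the cytosolic ribosome in mouse macrophages given a compound that activates STING. They were taken as the protein-coding genes whose symbols name a large-subunit protein (Rpl), a small-subunit protein (Rps), an acidic stalk protein (Rplp0, Rplp1, Rplp2) or Rpsa, without pseudogenes and without the Rps6k kinases. The rule found 83 of the 53715 genes in the table, of which 46 are large-subunit genes, 31 are small-subunit genes and 6 are paralogs that differ from the main gene by a final letter or number (Rpl3l, Rpl7l1, Rpl10l, Rpl22l1, Rpl39l, Rps27l). No measured value entered the rule.

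All cells were Sting-/- mouse macrophages, so none made STING from its own gene, and every dish received 500 µg/ml CMA (10-carboxymethyl-9-acridanone), a compound that activates mouse STING, for 4 h. The zfCTT cells stably expressed mouse STING that carries the zebrafish C-terminal tail, the mSTING cells expressed mouse STING, the dCTT cells expressed mouse STING without its C-terminal tail, and the last cells carried no transgene (their titles name MSCV2.2). Polyadenylated RNA was sequenced in 2 libraries for each of the 4 labels, 8 in all, and the comparisons ask whether the tail carried by STING changes the transcripts of the treated cell. No untreated cells were analysed here, and nothing in the labels tells whether the 2 libraries of a label are separate cultures. The p-values may therefore rest on technical spread alone.

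A ribosome holds 1 copy of nearly every ribosomal protein, so cells make the subunit proteins in matched amounts, and their mRNAs are among the most abundant in a growing cell. Most of these mRNAs begin with a cytosine followed by a run of pyrimidines, the 5′ terminal oligopyrimidine (TOP) motif, through which mTORC1 and the RNA-binding protein LARP1 adjust their translation and stability. Several of the proteins also have roles away from the ribosome: Rpl13a joins a complex that holds back the translation of inflammatory mRNAs, Rps3 can bind the p65 subunit of NF-κB, and Rpl5 and Rpl11 bind the p53 regulator Mdm2. The mouse genome holds many processed pseudogenes of these genes, which are intron-less copies of their mRNAs.

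The libraries held 20.1 and 34.8 M reads from zfCTT cells, 88.1 and 88.2 M from mSTING cells, 55.7 and 171 M from dCTT cells, and 27.7 and 101 M from cells without a transgene, read from the steps of the values. The STING gene Tmem173 had 14.2 and 20.6 RPKM in zfCTT cells, 10.6 and 22.2 RPKM in mSTING cells, 22.7 and 14.98 RPKM in dCTT cells, and 3.23 and 2.42 RPKM in cells without a transgene, so both libraries of each transgene label were above both without one. Macrophage markers summed to between 541 and 1151 RPKM, while those of T cells, B cells, neutrophils, dendritic cells, fibroblasts and epithelial cells stayed under 1 RPKM as sums in every library, with Cd3e, Cd8a, Ly6g, Col1a2, Col3a1 and Dcn at 0 throughout. As these are bulk libraries, fewer cells of a type and less RNA per cell cannot be told apart.

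Ribosomal protein genes gave a large part of the summed RPKM, between 7.25% and 8.73% of all rows. Their summed RPKM (a read count divided by gene model length and by library depth) was 8.64% and 7.57% of the sum over all rows in zfCTT cells, 8.73% and 8.41% in mSTING cells, 7.25% and 8.30% in dCTT cells, and 8.50% and 8.30% in cells without a transgene. The lowest and the highest value therefore belonged to a dCTT and an mSTING library, and the dCTT values did not reach those of mSTING cells or, by a narrow margin, those of cells without a transgene. The zfCTT range overlapped that of every other label. Against protein-coding rows alone the shares were 18.6% and 18.1% in zfCTT cells, 19.7% and 18.2% in mSTING cells, 19.2% and 18.6% in dCTT cells, and 20.5% and 17.9% in cells without a transgene. On that scale the highest and the lowest library were the 2 without a transgene, so the labels did not separate. Short miRNA gene models, which gain RPKM from being short, held 21.0% to 32.6% of the sum over all rows.

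The balance of the subunits was similar in all but 1 library. Large-subunit genes summed to 2.02 and 2.13 times the RPKM of small-subunit genes in zfCTT cells, 2.1 and 2.06 times in mSTING cells, 1.92 and 2.09 times in dCTT cells, and 1.68 and 2.05 times in cells without a transgene. The ratio of 1.68 in the first library without a transgene went with small-subunit genes summing to 27480.1 RPKM there, against 20744 to 22766 RPKM in 6 of the other libraries and 23655 RPKM in the first mSTING library.

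**Figure D1:**
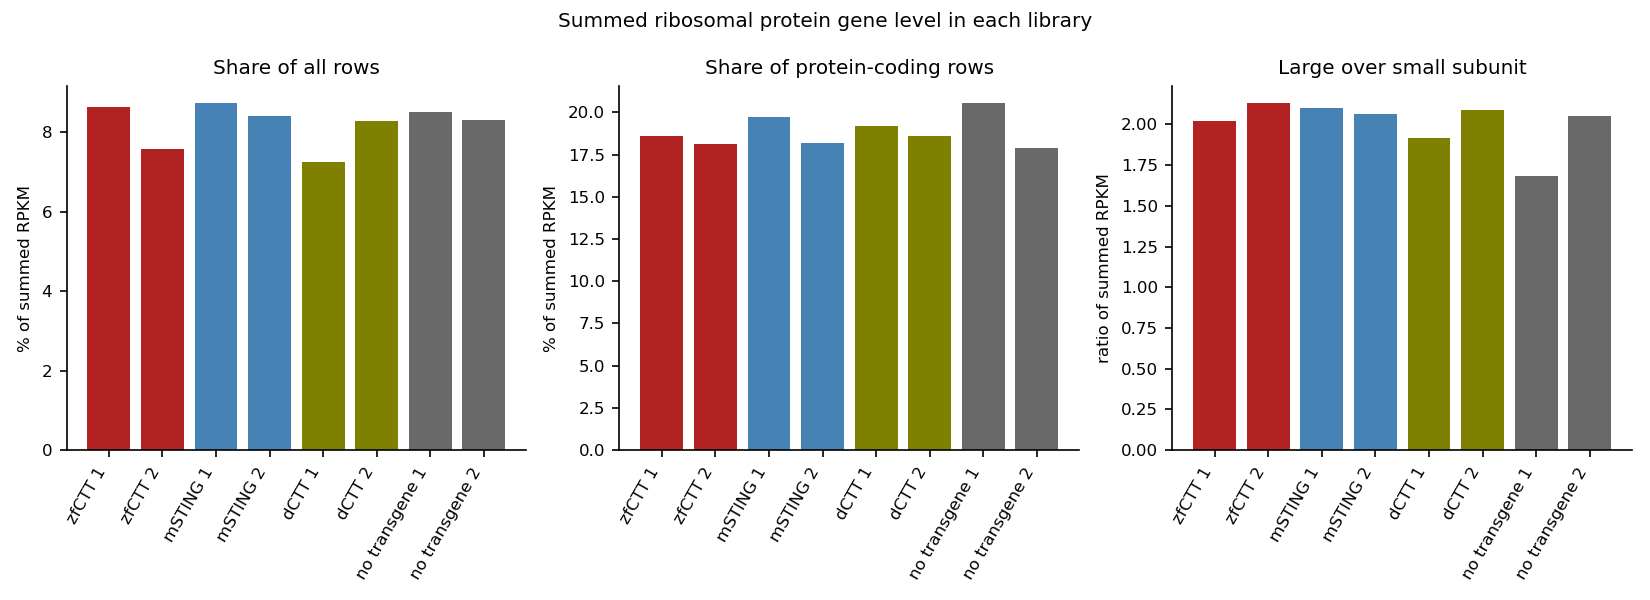
Bars give, for each of the 8 libraries, the summed RPKM of the ribosomal protein genes as a percent of all rows (left) and of protein-coding rows (middle), and the ratio of large-subunit to small-subunit RPKM (right). The shares lie between 7.25% and 8.73% and between 17.9% and 20.5%, and the ratio lies between 1.68 and 2.13.

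Levels of single members spread widely within that total. Of the 83 members, 79 had at least 1 RPKM in at least 2 libraries and were tested, and 73 of these averaged over 100 RPKM. Their median mean was 562 RPKM. The 4 below the filter were all paralogs: Rpl10l, a retrogene known from testis, was at 0 in every library, Rpl3l, the striated muscle form of Rpl3, reached 0.285 RPKM, Rpl39l reached 0.0600 RPKM and Rpl22l1 reached 1.63 RPKM in 1 library. The other 2 paralogs were measured well above the filter.

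Rplp1, an acidic protein of the stalk that recruits elongation factors, was the most abundant member in every library. It had 7133 and 7993 RPKM in zfCTT cells, 9848 and 8266 RPKM in mSTING cells, 8039 and 8457 RPKM in dCTT cells, and 7760.4 and 7895 RPKM in cells without a transgene. It gave 10.5% to 13.4% of all ribosomal protein RPKM. Next by mean over the 8 libraries came Rpl36 at 4473 RPKM, the stalk base Rplp0 at 3209 RPKM, Rpl23a, which lines the exit of the nascent chain, at 3097 RPKM, and Rps15 at 2322 RPKM. At the low end of the tested main genes stood Rpl39, a small basic protein of the exit tunnel, at 26.6 RPKM, Rps15a at 31.1 RPKM, Rps24 at 53.7 RPKM and Rpl7 at 70.8 RPKM, with the paralog Rpl7l1 at 39.2 RPKM.

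Part of that order comes from gene model length. The gene models join the exons of all annotated transcripts of a gene and had a median of 1781 bases over the tested members. The coding mRNA, taken as the shortest transcript with the longest coding part, had a median of 751 bases. Expressed per kilobase of coding mRNA, an alternative chosen after seeing the data, Rplp1 stayed first, Rps28 and Rplp2 followed, and Rps15a stood at 305 in place of 31.1. Spearman's rho between both orders was 0.89 over 79 genes, which are not independent replicates, and 2 of the 5 highest genes were shared. Levels between genes are therefore given only with their scale. The ratio of a gene's RPKM between libraries does not depend on it. Log2 differences below are of RPKM + 1 unless stated, which understates the change of genes at low RPKM.

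**Figure D2:**
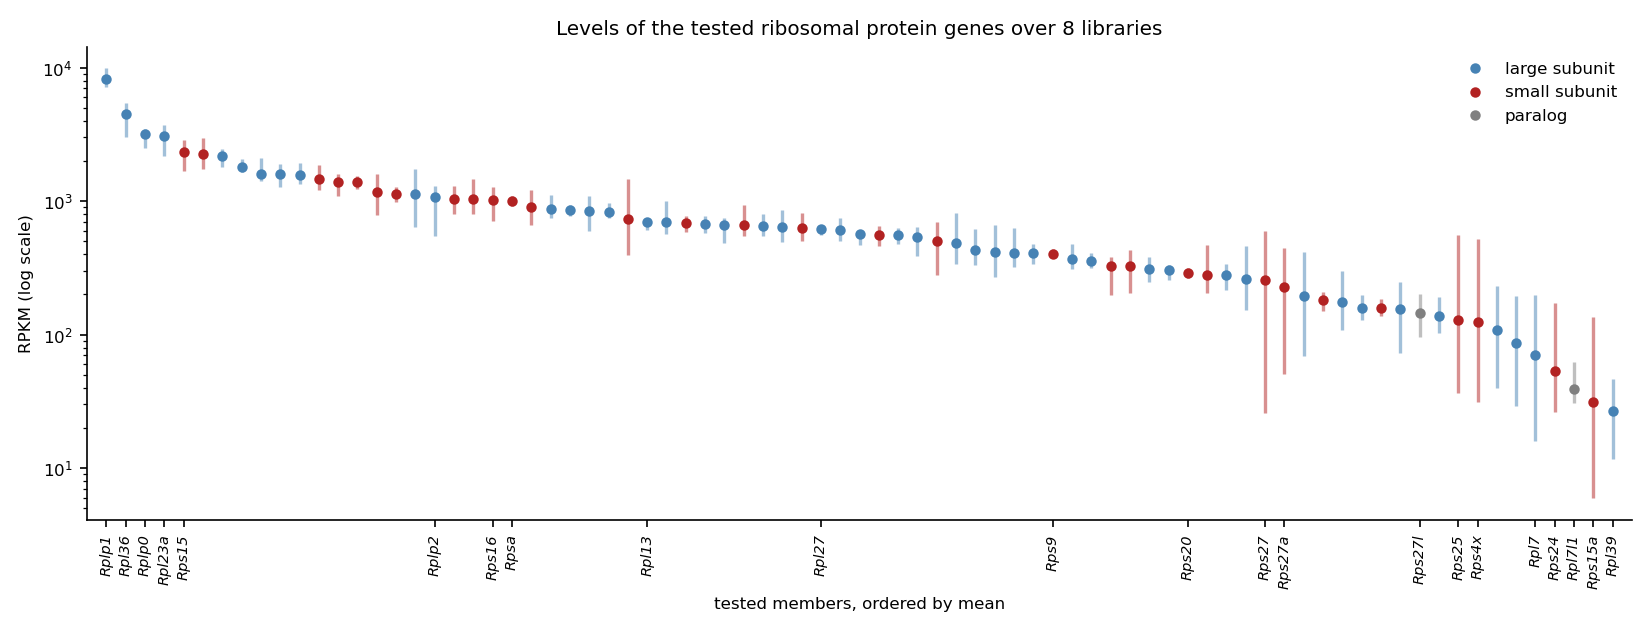
Each point is the mean RPKM of a tested member over the 8 libraries on a log scale, and each line runs from its lowest to its highest library, coloured by subunit, with names for some of the members described. Rplp1 leads at 8174 RPKM, and the long lines at the right belong to Rps27, Rps25, Rps4x, Rpl7 and Rps15a.

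Most members varied little over all 8 libraries. The highest library exceeded the lowest by a median factor of 1.69, by under 1.5 for 30 members and under 2 for 54. Rps9, a small-subunit protein that binds early in assembly, was the steadiest. It had 395 and 392 RPKM in zfCTT cells, 415 and 396 RPKM in mSTING cells, 439.6 and 400.1 RPKM in dCTT cells, and 388 and 414 RPKM in cells without a transgene, a highest value 1.13 times the lowest. Rpl27, Rpl13, Rps20 and Rpsa followed, with highest values 1.20, 1.22, 1.20 and 1.19 times the lowest. At the other end, 10 members differed by over 4 times and 5 by over 10 times between libraries: Rps27 (23.3 times), Rps15a (22.9), Rps4x (16.5), Rps25 (15.4) and Rpl7 (12.5).

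No ribosomal protein gene passed the test between any labels. With limma's moderated test over 13475 genes and Benjamini-Hochberg adjustment at 0.05, 0 of 79 members were called in each of 6 comparisons. Of all genes tested, 1.08% were called for zfCTT cells over cells without a transgene, 0.119% for zfCTT over mSTING, 1.08% for zfCTT over dCTT and 0% in the other 3. Members at an unadjusted p under 0.05 numbered 6 for zfCTT over no transgene, 5 for zfCTT over mSTING, 2 for zfCTT over dCTT and 0 in the other 3, all of them lower in zfCTT cells. Of all genes, 13.4%, 11% and 12.7% had such a p in these 3 zfCTT comparisons, and 3.47%, 0.267% and 2.49% in mSTING over no transgene, dCTT over no transgene and dCTT over mSTING. The voom method on recovered reads also called 0 members in all 6, with 7, 9, 5, 1, 0 and 0 members at an unadjusted p under 0.05 for zfCTT over no transgene, zfCTT over mSTING, zfCTT over dCTT, mSTING over no transgene, dCTT over no transgene and dCTT over mSTING, against 11.1%, 9.71%, 11.3%, 3.8%, 0.149% and 3.28% of all genes. The median SE of a member was 0.23 on the log2 scale, and differences well above that size also went uncalled. For zfCTT over no transgene, limma gave Rps16 -0.65 ± 0.18 (SE), adjusted p = 0.179, and Rpl39 -1.22 ± 0.44 (SE), adjusted p = 0.313. The lack of calls therefore does not show that the members were unchanged.

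Most members, like most genes, differed by little. For zfCTT cells over cells without a transgene the median log2 difference of the 79 members was -0.18, beside -0.04 over all genes tested, and 24 members were positive and 55 negative. For mSTING it was -0.08, beside -0.04, with 32 positive and 47 negative, and for dCTT it was -0.09, beside -0.01, with 24 positive and 55 negative. These 3 comparisons share the 2 libraries without a transgene. Without the first of these, the medians were 0.01, 0.02 and 0.06, so the negative sign in all 3 rested on that library. Between the transgene labels the medians were 0.00 for zfCTT over mSTING, 0.02 for dCTT over mSTING and -0.09 for zfCTT over dCTT, beside 0.01, 0.03 and -0.02 over all genes. Differences stayed under 0.5 in size for 65, 62 and 73 of the 79 members in zfCTT, mSTING and dCTT cells over cells without a transgene, beside 79.1%, 84.1% and 95.1% of all genes. They did so for 58, 66 and 71 members in zfCTT over mSTING, dCTT over mSTING and zfCTT over dCTT, beside 77.8%, 89.3% and 79.3%.

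**Figure D3:**
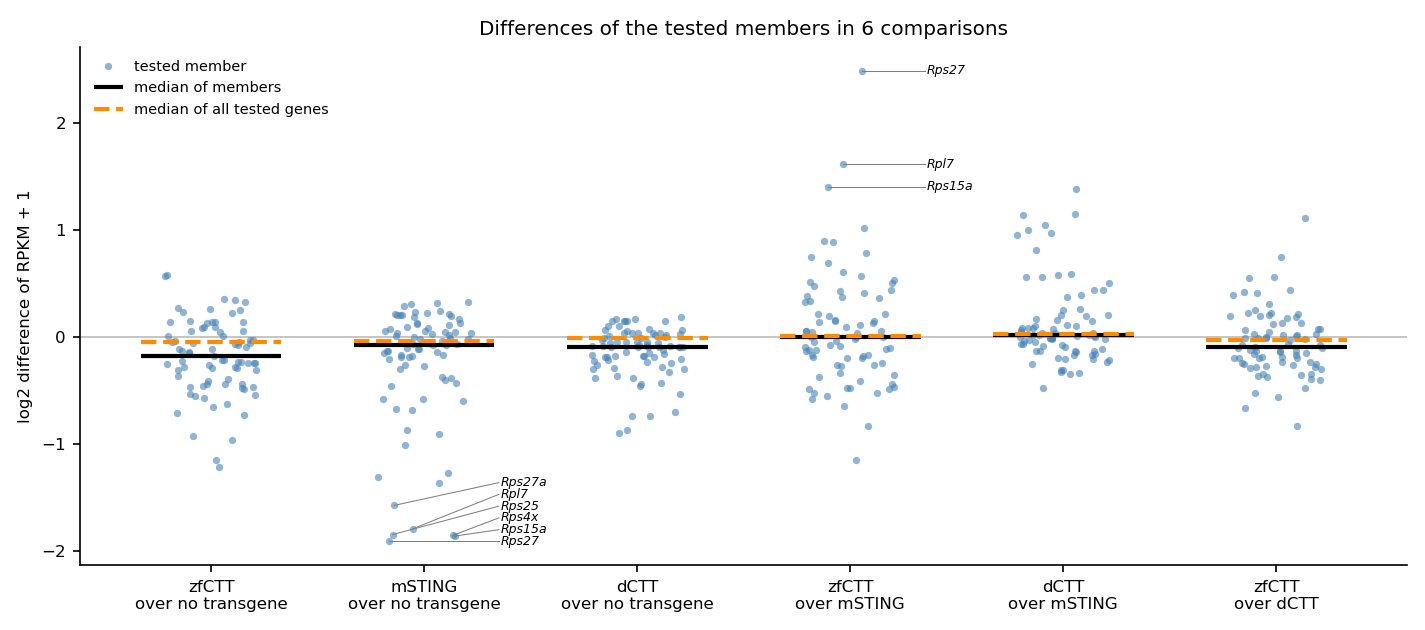
Each point is the log2 difference of RPKM + 1 of a tested member in 1 of 6 comparisons; the black bar is the median of the 79 members and the dashed bar that of all 13475 genes. The member medians lie between -0.18 and 0.02, and the named points beyond 1.4 are members that differ strongly between libraries of a label.

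The interferon response of the same cells gives a scale for these values. Of 20 interferon-stimulated genes, 19 were tested, and their median log2 difference was 4.43 in zfCTT cells, 2.77 in mSTING cells and 0.00 in dCTT cells over cells without a transgene. All 19 had positive differences in zfCTT cells and in mSTING cells over cells without a transgene, while 6 were positive and 11 negative in dCTT cells. The test called 12 of the 19 for zfCTT, all higher, and 0 for mSTING and for dCTT.

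By subunit, zfCTT cells over cells without a transgene had negative differences in both. There 25 of 31 small-subunit genes were negative, with a median of -0.24, and 29 of 46 large-subunit genes were negative, with a median of -0.06. The corresponding medians were -0.11 and -0.05 in mSTING cells and -0.14 and -0.08 in dCTT cells, and the difference between subunits was not tested. All of these medians use the first library without a transgene, where small-subunit genes summed to 27480 RPKM, against 21719 RPKM in the second. The part of that library in the subunit medians was not tested. Libraries of zfCTT cells lay below both libraries without a transgene for 24 members and above both for 7 of 79, against 20.8% and 18.8% of all genes. For mSTING the counts were 14 and 8, against 17.0% and 15.3%, and for dCTT 3 and 4, against 6.69% and 7.75%.

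Rps16, a small-subunit protein whose tail reaches the P-site tRNA, had the lowest p of all members. It had 714 and 819 RPKM in zfCTT cells, 926 and 1033 RPKM in mSTING cells, 1145 and 1116 RPKM in dCTT cells, and 1285 and 1121 RPKM in cells without a transgene. Both zfCTT libraries were the lowest of the 8, and the next was the first mSTING library. The log2 difference was -0.65 ± 0.18 (SE), adjusted p = 0.179 for zfCTT over no transgene, and -0.56 ± 0.18 (SE), adjusted p = 0.257 for zfCTT over dCTT. Over mSTING the same libraries gave -0.35 ± 0.18 (SE), adjusted p = 0.480.

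Rpl39 had the most negative log2 difference of the members in zfCTT cells over cells without a transgene, and it did not pass the test. It had 15.6 and 11.7 RPKM in zfCTT cells, 46.5 and 20.9 RPKM in mSTING cells, 22.3 and 27.5 RPKM in dCTT cells, and 45.1 and 23.6 RPKM in cells without a transgene. Its 2 zfCTT libraries were the lowest, while the 2 mSTING libraries, and the 2 without a transgene, also lay far apart. The difference was -1.22 ± 0.44 (SE), adjusted p = 0.313 for zfCTT over no transgene and -1.15 ± 0.44 (SE), adjusted p = 0.443 for zfCTT over mSTING.

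The stalk proteins differed in the sign of their differences, and none passed the test. Rplp2, the partner of Rplp1, had 544 and 925 RPKM in zfCTT cells, 1288 and 1245 RPKM in mSTING cells, 992 and 1278 RPKM in dCTT cells, and 1165 and 1157 RPKM in cells without a transgene, which placed zfCTT below all others. Its difference was -0.71 ± 0.28 (SE), adjusted p = 0.347 for zfCTT over no transgene and -0.83 ± 0.28 (SE), adjusted p = 0.418 for zfCTT over mSTING. Rplp0, which anchors both to the ribosome, had 3423 and 3381 RPKM in zfCTT cells, 3457 and 3187 RPKM in mSTING cells, 3116 and 3333 RPKM in dCTT cells, and 2479 and 3294 RPKM in cells without a transgene. Only the first library without a transgene stood low, and the difference was 0.25 ± 0.19 (SE), adjusted p = 0.624 for zfCTT over no transgene. For Rplp1 it was -0.05 ± 0.17 (SE), adjusted p = 0.932.

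Other members with zfCTT libraries below both libraries without a transgene included Rps13 (197 and 289.8 RPKM in zfCTT cells, 364 and 373 RPKM in cells without a transgene) and the p53-inducible paralog Rps27l (95.6 and 127 RPKM in zfCTT cells, 201 and 128 RPKM in cells without a transgene). Their differences were -0.62 ± 0.23 (SE), adjusted p = 0.330, and -0.54 ± 0.27 (SE), adjusted p = 0.459. Rpl27a and Rps12 were also at an unadjusted p under 0.05, and they are named after their values were seen. Rpl27a had 487 and 549 RPKM in zfCTT cells and 730.5 and 718 RPKM in cells without a transgene, a difference of -0.48 ± 0.17 (SE), adjusted p = 0.286. Rps12 had 805 and 895 RPKM in zfCTT cells and 1303 and 1149 RPKM in cells without a transgene.

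The 7 members whose zfCTT libraries lay above both libraries without a transgene held 5 large-subunit genes and 2 small-subunit genes, Rpsa, the laminin-receptor protein, and Rps2. Rpl8 had 2357 and 2315 RPKM in zfCTT cells and 1798 and 2088 RPKM in cells without a transgene, a difference of 0.27 ± 0.18 (SE), adjusted p = 0.574. Rpl6 followed with 0.26 ± 0.18 (SE), adjusted p = 0.592, Rplp0 with the value above, Rpl7a with 0.23 ± 0.17 (SE), adjusted p = 0.607, and Rpsa with 0.15 ± 0.17 (SE), adjusted p = 0.753. Rpl13 and Rps2 stood at 0.14 and 0.13. None of the 7 exceeded 0.27 on the log2 scale.

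For mSTING cells over cells without a transgene, the most positive members without overlap were Rpl18 at 0.33 ± 0.22 (SE), adjusted p = 0.840, Rpl29 at 0.31 ± 0.23 (SE), adjusted p = 0.840, and Rpl36 at 0.29 ± 0.31 (SE), adjusted p = 0.843. Rplp1 and Rps15 followed, both at 0.20. The most negative were Rpl7 at -1.79 ± 0.95 (SE), adjusted p = 0.840, Rps27a at -1.57 ± 0.67 (SE), adjusted p = 0.840, Rpl22 at -1.37 ± 0.69 (SE), adjusted p = 0.840, Rpl35a at -1.27 ± 0.57 (SE), adjusted p = 0.840, and Rps10 at -0.68 ± 0.32 (SE), adjusted p = 0.840. In each of these 5, the first mSTING library was the lowest of the 8 and the first library without a transgene the highest.

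For dCTT cells over cells without a transgene, few members were apart. The positive members without overlap included Rpl13, Rpl8 and Rplp1, at 0.15, 0.15 and 0.08, and the negative ones were Rpl37 at -0.30 ± 0.22 (SE), adjusted p = 1, Rpl19 at -0.10 and Rpl27a at -0.09. Over mSTING cells, the dCTT libraries lay highest for Rpl5, at 0.58 ± 0.43 (SE), adjusted p = 1, followed by Rpl17 at 0.39, Rps7 at 0.37, Rpl3 at 0.27 and Rps16 at 0.21. They lay lowest for Rps3a1, at -0.48 ± 0.30 (SE), adjusted p = 1, followed by Rps27l at -0.21, Rps15 at -0.20, Rpl18 at -0.14 and Rpl27a at -0.13. In all, 7 members were above and 6 below in both dCTT libraries, against 16.2% and 12.8% of all genes.

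Between the labels with a tail, zfCTT cells over mSTING cells had 13 members above and 24 below without overlap, against 24.9% and 24.4% of all genes. The most positive were Rps27 at 2.49 ± 1.32 (SE), adjusted p = 0.495, Rpl7 at 1.61 ± 0.95 (SE), adjusted p = 0.519, Rps15a at 1.41 ± 1.38 (SE), adjusted p = 0.677, Rps4x at 0.89 ± 1.33 (SE), adjusted p = 0.791, and Rps6, the substrate of S6 kinase, at 0.75 ± 0.33 (SE), adjusted p = 0.465. After Rpl39 and Rplp2, the most negative were Rps26 at -0.64 ± 0.23 (SE), adjusted p = 0.431, Rps27l at -0.57 ± 0.27 (SE), adjusted p = 0.474, and Rps13 at -0.55 ± 0.23 (SE), adjusted p = 0.465. For zfCTT over dCTT, 8 were above and 21 below, against 20.1% and 24.7%. They ran from Rpl26, which can bind p53 mRNA, at 0.42 ± 0.29 (SE), adjusted p = 0.601, then Rps3a1 at 0.39, Rpl37 at 0.31, Rpl6 at 0.22 and Rpl7a at 0.20, to Rpl24 at -0.48 ± 0.19 (SE), adjusted p = 0.375, Rps13 at -0.53, Rplp2 at -0.66 and Rpl39 at -0.83.

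Members with known roles outside the ribosome did not pass the test. Rpl13a had 542 and 497 RPKM in zfCTT cells, 864 and 608 RPKM in mSTING cells, 643 and 681 RPKM in dCTT cells, and 539 and 703 RPKM in cells without a transgene, with the difference -0.24 ± 0.24 (SE), adjusted p = 0.708 for zfCTT over no transgene and 0.24 ± 0.24 (SE), adjusted p = 0.841 for mSTING over no transgene. Rps3 had 148 and 138 RPKM in zfCTT cells, 161 and 147 RPKM in mSTING cells, 184 and 144 RPKM in dCTT cells, and 179 and 159.6 RPKM in cells without a transgene, and the difference for zfCTT over no transgene was -0.24 ± 0.19 (SE), adjusted p = 0.634. The Mdm2-binding Rpl11 gave -0.13 ± 0.19 (SE), adjusted p = 0.818 for zfCTT over no transgene. Its partner Rpl5 had 223 and 134 RPKM in zfCTT cells, 72.7 and 136 RPKM in mSTING cells, 151 and 148 RPKM in dCTT cells, and 249.8 and 133 RPKM in cells without a transgene, with the difference -0.08 ± 0.43 (SE), adjusted p = 0.962 for zfCTT over no transgene. The libraries of zfCTT cells, of mSTING cells and of cells without a transgene each lay far apart for Rpl5.

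Rps14 and Rps19, whose human genes are mutated or lost in bone marrow failure, gave -0.23 ± 0.22 (SE), adjusted p = 0.705, and -0.21 ± 0.18 (SE), adjusted p = 0.651 for zfCTT over no transgene. Rps2 gave 0.13 ± 0.18 (SE), adjusted p = 0.805, Rpl4 gave 0.14 ± 0.30 (SE), adjusted p = 0.880, Rpl3, the peptidyl-transferase centre protein, gave -0.05 ± 0.22 (SE), adjusted p = 0.950, and Rpl17 gave -0.44 ± 0.41 (SE), adjusted p = 0.694. Rps6 had 471 and 273 RPKM in zfCTT cells, 205 and 219.6 RPKM in mSTING cells, 284 and 209 RPKM in dCTT cells, and 341 and 232 RPKM in cells without a transgene. Its first zfCTT library was the highest and its first library without a transgene the second highest, with a difference of 0.35 ± 0.33 (SE), adjusted p = 0.699.

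In each paralog pair, the main gene had the higher mean RPKM over the 8 libraries. Rpl7l1, a factor of large-subunit assembly, had 62.1 and 37.9 RPKM in zfCTT cells, 31.2 and 31.6 RPKM in mSTING cells, 43.1 and 30.6 RPKM in dCTT cells, and 46.0 and 31.0 RPKM in cells without a transgene. Rps27l stood at 111 ± 22.4 RPKM in zfCTT cells, 165 ± 13.7 RPKM in mSTING cells, 143 ± 13.5 RPKM in dCTT cells and 165 ± 51.7 RPKM in cells without a transgene (SD, n = 2 each), while Rps27 ranged from 25.7 to 600 RPKM. Rps27l was above Rps27 in both mSTING libraries and in the second libraries of dCTT cells and of cells without a transgene, and Rpl7l1 was above Rpl7 in the first mSTING library. Rpl10 had 347 and 356 RPKM in zfCTT cells, 271 and 392 RPKM in mSTING cells, 582 and 369 RPKM in dCTT cells, and 668 and 357 RPKM in cells without a transgene, with a difference of -0.47 ± 0.37 (SE), adjusted p = 0.636 for zfCTT over no transgene.

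A few members differed strongly between libraries of the same label. Over 79 members, the median absolute log2 difference between the 2 libraries of a label was 0.29 in zfCTT cells, 0.23 in mSTING cells, 0.26 in dCTT cells and 0.31 in cells without a transgene, beside 0.29, 0.21, 0.22 and 0.32 over all genes tested. On the log2(RPKM + 1) scale, a difference over 1 was found for 3, 7, 7 and 13 members, or 3.80%, 8.86%, 8.86% and 16.5%, against 7.76%, 4.45%, 4.68% and 9.95% of all genes. A difference over 2 in at least 1 label was found for 7 members, which are named after their values were seen: Rpl7, Rps4x, Rps15a, Rps24, Rps25, Rps27 and Rps27a.

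Rps4x, the X-linked form of a small-subunit protein, had 95.0 and 47.2 RPKM in zfCTT cells, 40.6 and 31.5 RPKM in mSTING cells, 193 and 33.2 RPKM in dCTT cells, and 519.6 and 32.8 RPKM in cells without a transgene. The first library without a transgene stood at 520 RPKM, the highest of the 8, and the first dCTT library was the next highest. Rps25, which serves initiation on viral internal ribosome entry sites, had 104 and 41.2 RPKM in zfCTT cells, 44.0 and 36.6 RPKM in mSTING cells, 167 and 38.0 RPKM in dCTT cells, and 562 and 37.8 RPKM in cells without a transgene. Rps15a had 26.4 and 18.3 RPKM in zfCTT cells, 7.43 and 7.94 RPKM in mSTING cells, 40.0 and 5.95 RPKM in dCTT cells, and 136 and 6.23 RPKM in cells without a transgene, and Rps24 had 44.7 and 32.5 RPKM in zfCTT cells, 26.5 and 31.8 RPKM in mSTING cells, 60.5 and 31.2 RPKM in dCTT cells, and 171 and 30.9 RPKM in cells without a transgene. These 4 share 1 order, with the first library without a transgene highest and the first dCTT library second.

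Rps27, Rpl7 and Rps27a were also highest in the first library without a transgene, and in them, as in Rps24, the first mSTING library was the lowest of the 8. Rps27, a zinc-finger protein of the small subunit, had 527 and 220.1 RPKM in zfCTT cells, 25.7 and 137 RPKM in mSTING cells, 415 and 59.1 RPKM in dCTT cells, and 599.6 and 85.6 RPKM in cells without a transgene. Rpl7 had 128 and 42.7 RPKM in zfCTT cells, 15.9 and 34.5 RPKM in mSTING cells, 80.0 and 30.8 RPKM in dCTT cells, and 199.6 and 34.9 RPKM in cells without a transgene. Rps27a, made as a fusion of ubiquitin with a small-subunit protein, had 231 and 194 RPKM in zfCTT cells, 51.1 and 209.8 RPKM in mSTING cells, 285 and 188 RPKM in dCTT cells, and 447 and 216 RPKM in cells without a transgene. Differences between labels for these genes had standard errors of 0.67 to 1.38 on the log2 scale, and none passed the test.

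Spearman's rho of the member shifts (library 1 over library 2, 79 genes) was 0.58 between cells without a transgene and dCTT cells, 0.68 between cells without a transgene and zfCTT cells, 0.70 between dCTT and zfCTT cells, and -0.29 between cells without a transgene and mSTING cells. The libraries numbered 1 had the lower depth in those 3 labels, at 20.1, 55.7 and 27.7 M reads in zfCTT cells, dCTT cells and cells without a transgene against 34.8, 171 and 101 M for library 2, while the mSTING libraries held 88.1 and 88.2 M. The part of depth in the shift was not tested, since each label has 1 pair.

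These members share long stretches of sequence with other rows of the table. Of the 83 members, 80 had at least 1 exact 50-base window of their mRNA in another gene and 78 in a pseudogene, and the median member shared 60% of its windows. The window length was a choice, as the read length is not given in the sources used here. Rpl7a had most pseudogenes with a shared window, 105, while Rpl3l and Rpl39l were among those that shared no window with any gene. Rows of pseudogenes that share windows with members numbered 1030 and held 14.9% to 16.6% of all RPKM, against 7.25% to 8.73% for the members. Gene models of tested members had a median of 1781 bases against 751 for the coding mRNA, which lowers member RPKM. The order in RPKM is therefore not an order in reads, and the 1030 rows were not compared with the members in reads. How the authors placed reads that fit several genes is not given in the sources used here, and reads of identical stretches cannot be assigned by sequence, so the values of these members are uncertain.

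Rps27 shows how close the copies are. Its first 60 coding bases are printed beside those of Rps27rt, an intron-less protein-coding copy on chromosome 9, and of the processed pseudogene Gm17241 on chromosome 15, from the GENCODE transcripts of GRCm38. Capitals mark the bases at which the gene and the pseudogene differ.
Rps27: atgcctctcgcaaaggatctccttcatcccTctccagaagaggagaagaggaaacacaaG
Rps27rt: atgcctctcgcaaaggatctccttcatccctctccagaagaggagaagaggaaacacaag
Gm17241: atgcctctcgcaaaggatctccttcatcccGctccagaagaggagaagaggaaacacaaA
Over all 252 coding bases Rps27rt was identical to Rps27 and Gm17241 was 99.2% identical. Rps15a and its pseudogene Rps15a-ps6 on chromosome 11 were 98.7% identical over 390 bases, with 1 difference, in capitals, in the first 60.
Rps15a: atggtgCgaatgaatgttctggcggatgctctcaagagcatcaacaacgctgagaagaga
Rps15a-ps6: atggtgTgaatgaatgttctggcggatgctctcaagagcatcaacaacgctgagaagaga

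The rows of these copies were highest in the same library as the member. Rps27rt had 176 and 115 RPKM in zfCTT cells, 8.74 and 77.5 RPKM in mSTING cells, 177 and 39.5 RPKM in dCTT cells, and 286 and 52.5 RPKM in cells without a transgene, and Gm17241 had 134 and 52.6 RPKM in zfCTT cells, 6.39 and 38.7 RPKM in mSTING cells, 97.3 and 23.1 RPKM in dCTT cells, and 160.1 and 29.5 RPKM in cells without a transgene. Both were lowest in the first mSTING library and highest in the first library without a transgene, as Rps27 was. Rps15a-ps6 had 37.6 and 46.7 RPKM in zfCTT cells, 23.2 and 18.8 RPKM in mSTING cells, 156 and 16.8 RPKM in dCTT cells, and 320.4 and 15.9 RPKM in cells without a transgene, at higher RPKM than Rps15a itself in every library. The gene model of Rps15a holds 6270 bases against 640 in its mRNA, which lowers its RPKM. In reads per M, Rps15a was above the sum of its 9 pseudogene rows in every library. Without a transgene it had 856 and 39.0 reads per M, against 259 and 12.5 for that sum. For Rps4x, the pseudogene Gm9616 had 44.8 and 19.5 RPKM in zfCTT cells, 18.4 and 11.9 RPKM in mSTING cells, 95.1 and 13.3 RPKM in dCTT cells, and 252 and 12.1 RPKM in cells without a transgene. For Rps25, Gm2225 had 77.8 and 28.8 RPKM in zfCTT cells, 45.7 and 26.6 RPKM in mSTING cells, 72.5 and 34.7 RPKM in dCTT cells, and 441 and 27.1 RPKM in cells without a transgene, and Rps25-ps1 had 115 and 33.9 RPKM in zfCTT cells, 19.96 and 24.4 RPKM in mSTING cells, 85.0 and 14.9 RPKM in dCTT cells, and 209.5 and 19.1 RPKM in cells without a transgene. In both the first zfCTT library was the second highest, ahead of the first dCTT library, whereas Rps25 itself was higher in the first dCTT library.

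**Figure D4:**
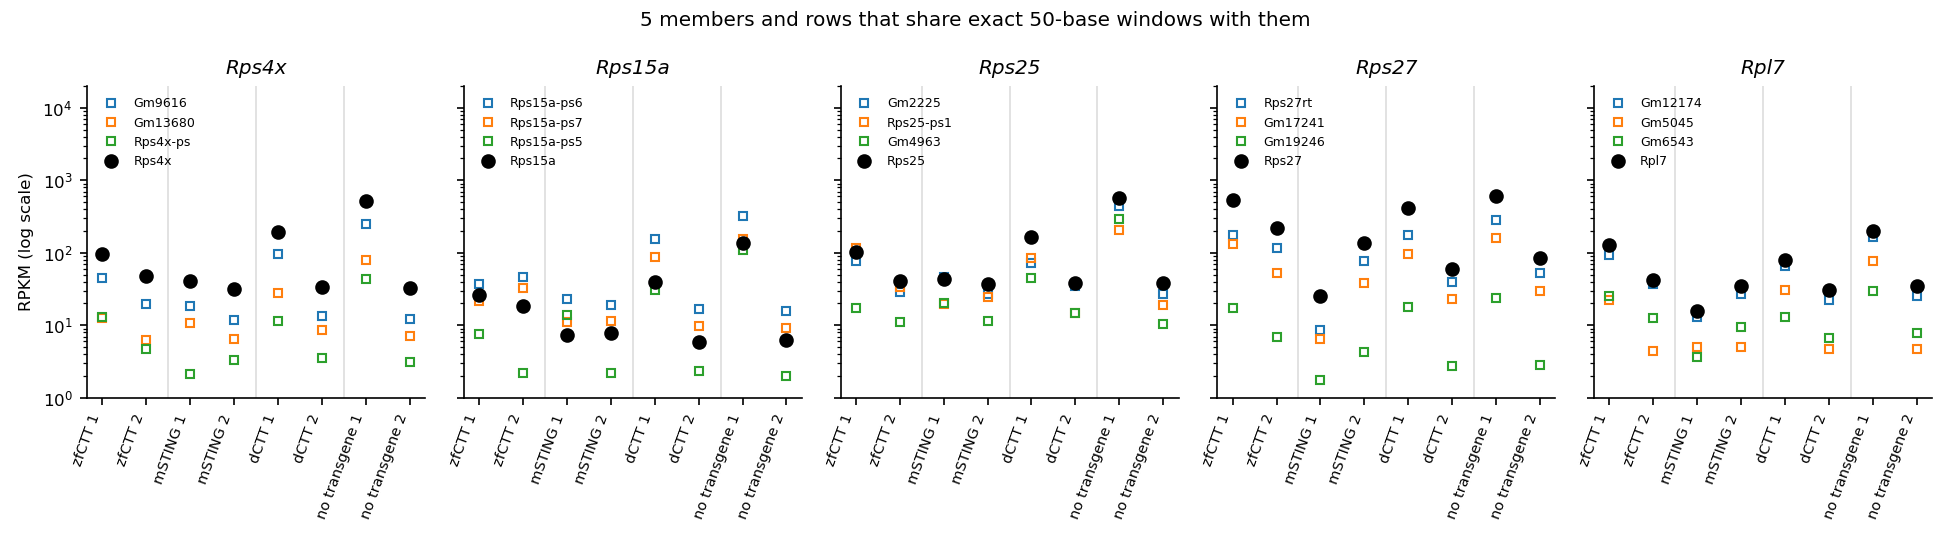
Filled circles give the RPKM of 5 members in each of the 8 libraries on a log scale, and open squares the 3 rows with the highest mean that share exact 50-base windows with them. Member and copies are high in the first library without a transgene, up to 600 RPKM for Rps27, and Rps27 with its copies is lowest in the first mSTING library.

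Across members, 75 of the 79 had pseudogene rows with at least 1 read per M in every library. In cells without a transgene, the shift between libraries had the same sign in the member and in its summed pseudogene rows for 63 of 75, with a Spearman's rho of 0.82 across genes. The counts were 51, 49 and 59 of 75 in zfCTT, mSTING and dCTT cells, with rho of 0.65, 0.60 and 0.66. Among members that shifted by over 1 in the log2 ratio of reads per M, taken without a pseudocount, the signs matched for 5 of 5, 6 of 7, 7 of 7 and 13 of 13 in zfCTT cells, mSTING cells, dCTT cells and cells without a transgene. A member and its copies share reads where their sequence is identical, so these rows are not independent of the member. Between the share of windows and the signed shift over 79 members, rho was 0.02, -0.15, 0.06 and 0.01 in zfCTT, mSTING, dCTT cells and cells without a transgene. Shifts of opposite sign cancel in this measure, so it does not tell whether the size of the shift goes with the share.

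**Figure D5:**
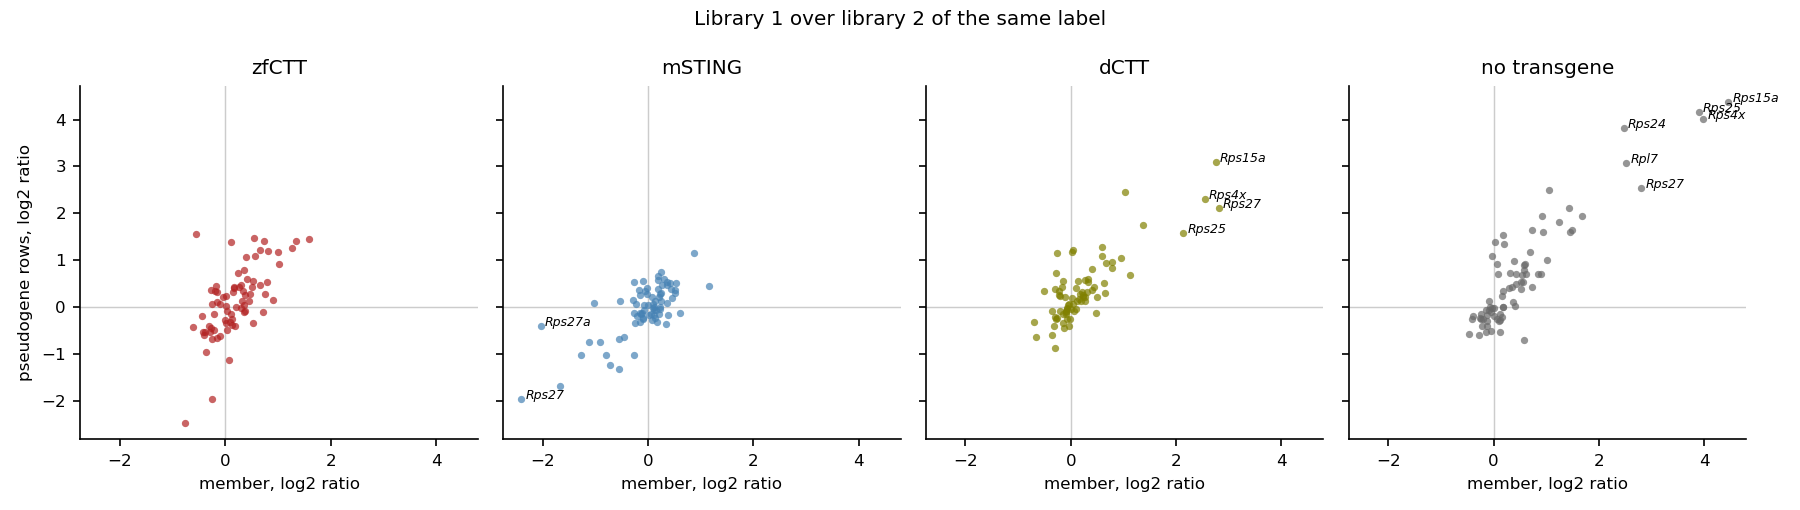
Each point is a member with measured pseudogene rows (75 genes); the horizontal axis is the log2 ratio of library 1 over library 2 of the member and the vertical axis that of its summed pseudogene rows, in reads per M, with 1 panel per label. Points spread along the diagonal, most widely in cells without a transgene, where Rps15a, Rps4x and Rps25 lie near 4.

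The starts of these genes were searched for known motifs. Promoters of 63 members were found among 27025 genes of the RefSeq table (GRCm38.p6, 250 bases before to 50 after the start). The ETS-type motif CCGGAAG, on either strand, was in 26 (41.3%), against 9.93% of all promoters, and AAGATGG, a YY1-type motif, in 10 (15.9%), against 7.28%; both share the letters AAG, so a single stretch can hold both. A run of at least 7 pyrimidines within 15 bases of the start was in 34 (54.0%), against 21.3%. The 30 bases around the annotated start are printed for the 5 of the 7 members with a difference over 2 that had a promoter in the table and for 4 steady ones, with the longest pyrimidine run in capitals. Such a run near the start is where the TOP motif would lie, and the annotated start need not be the one used in these cells.
Rps15a (chr7:118116133-118116162, minus strand): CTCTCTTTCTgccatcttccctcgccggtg
Rps24 (chr14:24490663-24490692, plus strand): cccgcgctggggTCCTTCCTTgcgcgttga
Rps25 (chr9:44407699-44407728, plus strand): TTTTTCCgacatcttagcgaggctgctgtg
Rps27 (chr3:90213634-90213663, minus strand): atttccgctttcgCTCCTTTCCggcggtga
Rps4x (chrX:102189377-102189406, minus strand): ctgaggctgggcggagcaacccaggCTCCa
Rps9 (chr7:3704026-3704055, plus strand): accgccttgTCTCTCTTTgtctcgggcctg
Rpl27 (chr11:101442230-101442259, plus strand): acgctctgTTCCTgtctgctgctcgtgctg
Rpl13 (chr8:123102335-123102364, plus strand): TTCCCTTTCgcctgattttgattggcgttt
Rpsa (chr9:120127751-120127780, plus strand): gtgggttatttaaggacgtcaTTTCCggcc
The 5 shifting members have runs of 10, 9, 7, 9 and 4 bases, and the 4 steady ones have runs of 9, 5, 9 and 5, so both sets hold long and short runs. A match or its absence in such a window says only which letters are there.

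Rack1, Fau and Rpl36al, ribosomal proteins that the symbol rule leaves out, did not pass the test either. Rack1, a scaffold on the small subunit, had 507 and 465 RPKM in zfCTT cells and 359 and 437 RPKM in cells without a transgene, a difference of 0.29 ± 0.20 (SE), adjusted p = 0.579. Fau, made as a fusion with a ubiquitin-like protein, gave -0.07 ± 0.19 (SE), adjusted p = 0.906. Rpl36al gave 0.17 ± 0.50 (SE), adjusted p = 0.921, and -1.0 ± 0.50 (SE), adjusted p = 0.840 for mSTING over no transgene, with 229 and 171 RPKM in zfCTT cells, 51.2 and 147 RPKM in mSTING cells, 147 and 139 RPKM in dCTT cells, and 226 and 135 RPKM in cells without a transgene.

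Genes that serve the ribosome in other ways gave no call with limma in any of the 6 comparisons. For zfCTT over no transgene, an unadjusted p under 0.05 was found for 5 mitochondrial ribosomal protein genes, 5 ribosome biogenesis genes, 3 regulators of TOP mRNAs and mTOR, 0 translation factors and other TOP mRNA genes, and 0 snoRNA host genes, of 78, 59, 19, 20 and 11 tested, beside 13.4% of all genes. Of 78 mitochondrial ribosomal protein genes, 0 passed the test in all 6 comparisons, and their median was 0.00 for zfCTT over no transgene, with 39 positive and 39 negative. Of 60 ribosome biogenesis genes, 59 were tested and 0 called, with a median of 0.24 for zfCTT over no transgene, 0.17 over mSTING and 0.21 over dCTT, beside -0.04, 0.01 and -0.02 over all genes. There 42, 45 and 48 of the 59 were positive, against 24, 41 and 30 of the 79 ribosomal protein genes. The count of 24 uses the first library without a transgene, without which the ribosomal protein median was 0.01. Biogenesis genes summed to 3679 and 3046 RPKM in zfCTT cells, 3036 and 2956 RPKM in mSTING cells, 3138 and 2773 RPKM in dCTT cells, and 3391 and 2701 RPKM in cells without a transgene. The zfCTT sums thus overlapped those of dCTT cells and of cells without a transgene. Nle1, an assembly factor of the large subunit, was the highest biogenesis gene without overlap, with 43.2 and 45.1 RPKM in zfCTT cells against 19.9 and 30.1 RPKM in cells without a transgene (log2 difference 0.82 ± 0.22 (SE), adjusted p = 0.167 by limma).

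A list of other TOP mRNAs holds translation factors such as Eef2 and Eef1a1, and also Hnrnpa1, Nap1l1 and Tpt1. These genes gave 0 calls among 20. Their medians were -0.08, -0.28 and -0.13 for zfCTT, mSTING and dCTT cells over cells without a transgene, beside -0.04, -0.04 and -0.01 over all genes. They summed to 6532 and 4844 RPKM in cells without a transgene and to between 4230 and 5965 RPKM in the transgene libraries, so the 3 medians share 1 high reference library. Eef1a1 had 253 and 569 RPKM in mSTING cells against 2285 and 609 RPKM in cells without a transgene, the same low and high libraries as Rpl7. Of 22 regulators of TOP mRNAs and mTOR, 19 were tested and 0 called. Eif4ebp2, a repressor of cap-dependent initiation that mTORC1 holds inactive, came closest, with 15.3 and 17.0 RPKM in zfCTT cells against 30.6 and 26.8 RPKM in cells without a transgene (log2 difference -0.79 ± 0.18 (SE), adjusted p = 0.121 by limma). Of 12 snoRNA host genes, whose spliced RNAs also begin with TOP motifs, 11 were tested and 0 called. Their medians over cells without a transgene were -0.41, -0.25 and -0.29 for zfCTT, mSTING and dCTT cells, beside -0.04, -0.04 and -0.01 over all genes. These genes summed to 277 and 153 RPKM in cells without a transgene and to between 157 and 191 RPKM in the transgene libraries, so the first library without a transgene stood apart here too. Snhg12 had 6.23 and 4.74 RPKM in zfCTT cells against 14.6 and 6.49 RPKM in cells without a transgene.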

How the data were processed

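RNA of 8 libraries was analysed, 2 for each of 4 transgene labels, grouped by the transgene label, with replicate numbers from the titles. The deposited values are RPKM per gene, computed by the authors. Single-end libraries were made from polyadenylated RNA, per the labels' protocols. Per the submitters' processing notes, the tools were cutadapt 1.16 and HISAT2 2.1.0 and the builds GRCm38 and mm10. How reads were counted, with which strand setting and with what treatment of reads that fit several genes is not given in the sources used here.

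Symbols, types and exon lengths came from the GENCODE annotation of GRCm38, which held 53620 identifiers of the table; 95 had none. RPKM times exon length fell on whole multiples of a library's step, to within 0.05 reads, in 95.0% to 95.6% of values above 0, which gave depths of 20.1 to 171 M reads. Genes with at least 1 RPKM in at least 2 libraries were tested on log2(RPKM + 1) with limma 3.58.1 in R 4.3.3, as a two-sided moderated test with an intensity trend, 1 mean per label over all 8 libraries (4 residual degrees of freedom), and Benjamini-Hochberg adjustment over 13475 genes at 0.05. Log2 differences are on the log2(RPKM + 1) scale and understate the change of low genes. The fit was tested on simulated data. A list is described by its count and median beside those of all genes. Mitochondrial ribosomal proteins, ribosome biogenesis genes, TOP mRNA genes, TOP and mTOR regulators, snoRNA host genes and cell type markers were listed by name.

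Named genes were, in each comparison, the 5 most positive and 5 most negative members whose libraries did not overlap, the 5 highest and 5 lowest by mean, the members under the filter, and a set of paralogs and genes with known roles; others are marked as named after their values were seen. Results for some genes are not reported here. The members and lists were chosen with earlier results of these data known. Alternatives were other pseudocounts, filters, scalings and gene types, voom on recovered reads, removal of GC and length trends, a replicate block and each library left out.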

Additional observations from a re-analysis of the deposited data

How the results depend on the processing

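In none of 21 alternatives per comparison did limma or voom call a member. The smallest adjusted p over these was 0.090. The median member difference moved from its reported value by less than the spread between libraries of a label (0.11 on the log2 scale) in 129 of 138 cases. For zfCTT over no transgene, it was 0.0094 without the first library without a transgene and 0.0094 without that library and the first dCTT library (added after seeing the data), -0.29 without the second library without a transgene, and -0.016 in libraries numbered 2. For mSTING over no transgene, it was 0.022 without the first and -0.23 without the second library without a transgene. For dCTT over no transgene, it was 0.059 without the first and -0.18 without the second library without a transgene, and -0.22 in libraries numbered 1. For zfCTT over dCTT, it was 0.030 without the first dCTT library, alone or with the first library without a transgene, and -0.13 without the second.

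The medians near 0 of dCTT and zfCTT over mSTING changed sign with scaling, to -0.01 and -0.01 under median-of-ratios scaling. The share of RPKM in zfCTT cells, mSTING cells, dCTT cells and cells without a transgene was 18.4%, 18.9%, 18.9% and 19.2% of protein-coding rows, and 5.69%, 5.66%, 5.33% and 5.90% of all rows without the 5 highest and 5 lowest members. Of recovered reads it was 8.56%, 8.95%, 8.92% and 9.25% in zfCTT cells, mSTING cells, dCTT cells and cells without a transgene. Rplp1 in dCTT over no transgene reversed, to -0.060, with GC and length trends removed, with or without the block. The cause of these shifts was not tested.

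The labels do not say that a replicate number marks a shared source, so the numbers were not taken as pairs. Correlations of same-numbered deviations over all genes were 0.76 for dCTT and no transgene, 0.43 for zfCTT and no transgene, 0.40 for zfCTT and dCTT, 0.26 for zfCTT and mSTING, 0.04 for mSTING and no transgene and 0.03 for dCTT and mSTING. Among members they were 0.88, 0.69 and 0.73 for the first 3 and -0.37 to -0.31 for those with mSTING. The replicate block called 0 members in all 6 comparisons and moved the calls over all genes to 432 for zfCTT over no transgene, 44 for zfCTT over mSTING and 409 for zfCTT over dCTT, against 146, 16 and 146 without it. Depth limits the first zfCTT library most.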
